A study of Mus musculus with 24 samples.

Results

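The aldo-keto reductases followed here are 10 mouse genes, Akr1c18, Akr1c6, Akr1c12, Akr1c13, Akr1c14, Akr1c19, Akr1c20, Akr1b3, Akr1b7 and Akr1b8, taken by symbol from a table of 53467 genes counted in 24 livers. Each level is the count relative to the library's total, as CPM, after scaling by the trimmed mean of M values (TMM). All 10 had at least 0.5 CPM in at least 2 libraries, as did 19381 genes of the table. The genes were chosen by their symbols with the CPM of the 6 groups already known, and which group difference led to each choice was not recorded. Their differences between groups are therefore given as descriptions, with fold changes and standard errors (SE) from the fit over all genes but with no p-value. Whether a member met the threshold used for all genes is stated as a description too, and p-values are printed for other genes only. All mice were male C57BL/6JAusb mice of 14 to 15 weeks, and all received a hydrodynamic tail vein injection (HTVI) of 0.8 µg of a Sleeping Beauty (SB) transposase plasmid, which inserts a co-injected oncogene into the genome of liver cells. Oncogene plasmids were 10 µg of myr-AKT with 10 µg of either NRasV12 or c-Met, and the injury agent was thioacetamide (TAA), given intraperitoneally at 100 and later 200 mg/kg over 5 to 6 weeks, with saline in its place in the other mice. The groups were SB/AKT/NRas + TAA (n = 5), SB/AKT/c-Met + TAA (n = 4) and, without oncogenes, SB + TAA (n = 4), followed by SB/AKT/NRas + saline (n = 4), SB/AKT/c-Met + saline (n = 3) and SB + saline (n = 4). Each library came from the liver of 1 mouse, and RNA from tumor and non-tumor tissue was not separated. HTVI reaches only part of the hepatocytes, so each oncogene liver is a mixture of cells with and without the plasmid.

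Aldo-keto reductases use NADPH to reduce aldehydes and ketones to alcohols, and most also run in the opposite direction. The Akr1c enzymes act mainly on steroids and prostaglandins, and in the liver they help to clear sex steroids, progestins and bile acid precursors as well as foreign carbonyl compounds. The Akr1b enzymes reduce sugars, retinaldehyde and the reactive aldehydes left by lipid peroxidation, and their human counterparts are known for high levels in some liver cancers.

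The genes lie in 2 clusters of the mouse genome (GRCm38). The 7 Akr1c genes sit within 474 kb of chromosome 13, from 4049011 to 4523345, in the order Akr1c14, Akr1c18, Akr1c13, Akr1c19, Akr1c12, Akr1c6 and Akr1c20. The 3 Akr1b genes sit within 121 kb of chromosome 6, from 34302434 to 34423142. RefSeq promoter windows of 300 bases, from 250 before to 50 after a start given for the gene on GRCm38.p6, matched 8 of the 10 genes. Akr1b3 and Akr1c20 had no match. The windows of Akr1c14 (from 4059341) and Akr1c19 (from 4233490) lie inside the genes as counted, which begin at 4049011 and 4228700. Akr1c18, whose level differed most between groups, is set here beside Akr1c12 and Akr1c13. The latter are near copies of each other in the same cluster, and their levels differed less. The windows of these 3 genes are shown. They are given 5′ to 3′ on the strand of the gene, with capitals for matches to TGTTTAC, a motif of FOXA factors, and to GGGCGG, the GC box, on either strand.
Akr1c18 (chr13:4150597-4150896, strand -): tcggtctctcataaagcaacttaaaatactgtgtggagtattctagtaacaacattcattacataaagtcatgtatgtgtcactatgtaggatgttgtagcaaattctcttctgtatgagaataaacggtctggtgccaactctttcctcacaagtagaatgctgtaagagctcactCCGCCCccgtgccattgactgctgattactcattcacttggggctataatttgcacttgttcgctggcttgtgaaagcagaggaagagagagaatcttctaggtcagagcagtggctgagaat
Akr1c12 (chr13:4279350-4279649, strand -): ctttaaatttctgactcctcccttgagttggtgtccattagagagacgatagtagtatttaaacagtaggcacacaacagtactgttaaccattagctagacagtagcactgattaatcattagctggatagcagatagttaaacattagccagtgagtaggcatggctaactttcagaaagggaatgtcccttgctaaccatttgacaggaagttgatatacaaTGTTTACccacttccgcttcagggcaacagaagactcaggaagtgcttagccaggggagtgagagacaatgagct
Akr1c13 (chr13:4190937-4191236, strand +): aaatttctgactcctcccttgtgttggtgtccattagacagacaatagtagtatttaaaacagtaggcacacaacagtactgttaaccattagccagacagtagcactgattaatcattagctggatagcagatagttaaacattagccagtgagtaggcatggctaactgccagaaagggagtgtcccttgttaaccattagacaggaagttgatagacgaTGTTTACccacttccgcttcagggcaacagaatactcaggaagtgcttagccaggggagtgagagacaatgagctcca
The Akr1c12 and Akr1c13 windows were 93.4% identical over their alignment, and both hold TGTTTAC about 25 bases before the start. That motif was found in 3 of the 8 windows, with Akr1b7 as the other one, against 3.65% of all 32851 promoters of that length. Akr1c18 held no TGTTTAC and held the GC box, which was found in 2 of 8 windows and in 35.7% of all promoters. TGANTCA, the AP-1 motif, was in none of the 8 windows and in 7.81% of all promoters, and TGACNNNGC, the core of the antioxidant response element, was in the Akr1c19 window alone and in 12.4% of all promoters. TTCNNNGAA, a STAT5 motif, was also in the Akr1c19 window alone, against 8.30% of all promoters. TATAAA was in the Akr1c6 and Akr1b8 windows, against 13.6% of all promoters. These matches are descriptions of the letters in these windows and were not tested for binding.

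Akr1c18 (ENSMUSG00000021214, chromosome 13, 4132615 to 4150654), the enzyme that reduces progesterone to an inactive alcohol, was almost absent from control livers and present in every liver given TAA or oncogenes. It was at 77.1, 92.5, 36.1, 22.3 and 166 CPM in SB/AKT/NRas + TAA livers and at 14.6, 49.6, 83.4 and 130.2 CPM in SB/AKT/c-Met + TAA livers. It was at 20.2, 7.50, 30.9 and 27.9 CPM in SB + TAA livers, at 10.1, 112, 428 and 131 CPM in SB/AKT/NRas + saline livers, and at 26.9, 60.5 and 41.6 CPM in SB/AKT/c-Met + saline livers. SB + saline livers had 0, 1.14, 0.802 and 0.428 CPM, from 5 counts in all 4 livers together. No liver of the 5 other groups overlapped with the SB + saline livers, the lowest of them being SB + TAA replicate 2. The groups themselves ran from 170.4 ± 179.5 CPM in SB/AKT/NRas + saline (SD, n = 4) through 78.9 ± 56.7 in SB/AKT/NRas + TAA (n = 5), 69.5 ± 49.3 in SB/AKT/c-Met + TAA (n = 4) and 43.0 ± 16.9 in SB/AKT/c-Met + saline (n = 3) to 21.6 ± 10.4 in SB + TAA (n = 4) and 0.592 ± 0.489 in SB + saline (n = 4). Neighbors in that order above SB + saline overlapped in their livers.

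**Figure D1:**
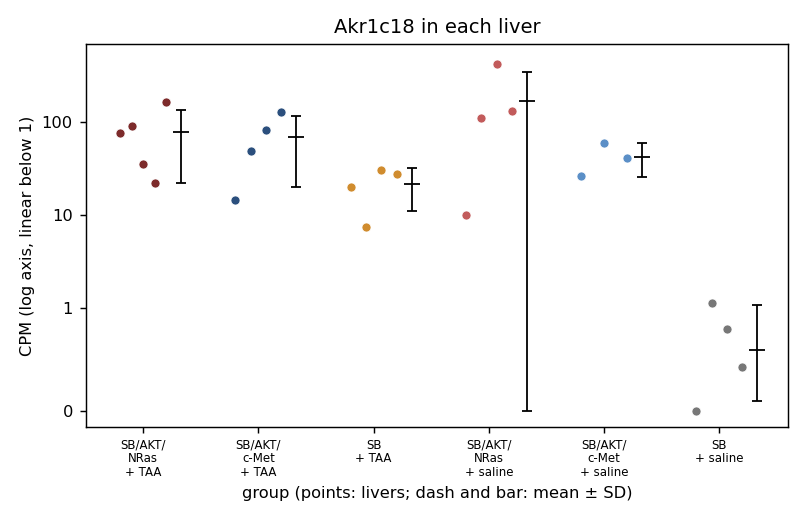
Akr1c18 in each of the 24 livers, in CPM, on an axis that is linear below 1 and logarithmic above; points are livers, and the dash and bar give the mean and SD of the group, cut at 0. The 4 SB + saline livers lie at or below 1.14 CPM and every other liver lies at or above 7.50 CPM.

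Against SB + saline the log2 fold change of Akr1c18 was 5.18 ± 1.23 (SE) in SB + TAA, 8.14 ± 1.11 in SB/AKT/NRas + saline livers and 6.16 ± 1.20 in SB/AKT/c-Met + saline. The 3 comparisons share the same SB + saline livers. Because those livers held 5 counts, the folds were also taken from summed counts with an interval for counting error alone. SB + TAA livers held 283 counts, for a ratio of 40.5 (95% interval 17.1 to 126). SB/AKT/NRas + saline livers held 2255 counts, for a ratio of 343 (147 to 1057), and SB/AKT/c-Met + saline livers held 346 counts, for a ratio of 79.7 (33.8 to 247). Akr1c18 met the call threshold (edgeR adjusted p under 0.05 and more than 2-fold) in all 3 comparisons. With limma-voom in place of edgeR it met it only in SB/AKT/NRas + saline livers, and in SB/AKT/c-Met + saline the call was also lost without SB/AKT/c-Met + saline replicate 2 or SB + saline replicate 4. The fold kept its sign in all 34 alternative fits of each comparison, between 4.75 and 5.56 on the log2 scale for SB + TAA, 7.14 and 8.66 for SB/AKT/NRas + saline and 5.73 and 6.53 for SB/AKT/c-Met + saline. In whole tissue, a change in the number of cells with a transcript and a change in the transcript per cell cannot be told apart.

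The log2 fold change of Akr1c18 with TAA over saline was 5.18 ± 1.23 on SB alone, −1.11 ± 0.59 in SB/AKT/NRas livers and 0.69 ± 0.71 in SB/AKT/c-Met livers. The difference of the TAA effect, oncogene livers minus SB livers, was −6.29 ± 1.37 for NRas and −4.49 ± 1.52 for c-Met. The first of these met the call threshold with edgeR but not with limma-voom, and the second did not with either. Without 1 library, the NRas call was lost for any 1 of the 4 SB + saline livers, SB + TAA replicate 4 or SB/AKT/NRas + saline replicate 3. Over SB + TAA, the combined groups were 1.85 ± 0.65 for NRas and 1.67 ± 0.67 for c-Met on the log2 scale, with overlapping livers.

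Within the livers given NRas, Akr1c18 ran in the order of the transgene. Human NRAS, counted separately from mouse Nras, was at 34.0, 47.7, 18.5, 17.9 and 75.7 CPM in SB/AKT/NRas + TAA replicates 1 to 5, against 12.3, 55.3, 218 and 66.1 CPM in SB/AKT/NRas + saline replicates 1 to 4. In both groups the livers ranked the same way by human NRAS and by Akr1c18, in 16 of 16 pairs of livers of one group. The count of Akr1c18 was 2.26, 1.94, 1.95, 1.25 and 2.20 times that of human NRAS in the SB/AKT/NRas + TAA livers, against 0.821, 2.03, 1.96 and 1.99 times in the SB/AKT/NRas + saline livers. The ratio was thus between 1.94 and 2.26 in 7 of the 9 livers, and lower in the 2 livers with the least human NRAS. This ratio is taken within a library and does not depend on scaling. Among 19379 mouse genes tested, 62 (0.32%) followed human NRAS in all 16 pairs and 85 (0.439%) ran in the reverse order in all 16. No other member did either. Human NRAS was at 0 to 0.612 CPM in SB + TAA livers, in which Akr1c18 was nevertheless at 7.50 to 30.9 CPM. In SB/AKT/c-Met + TAA livers human MET was at 0.768, 4.93, 5.83 and 10.9 CPM, again in the order of Akr1c18, whereas in SB/AKT/c-Met + saline livers it was at 5.56, 5.13 and 3.75 CPM and the order was not shared. The relation was looked for after the values were seen and is given without a test.

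**Figure D2:**
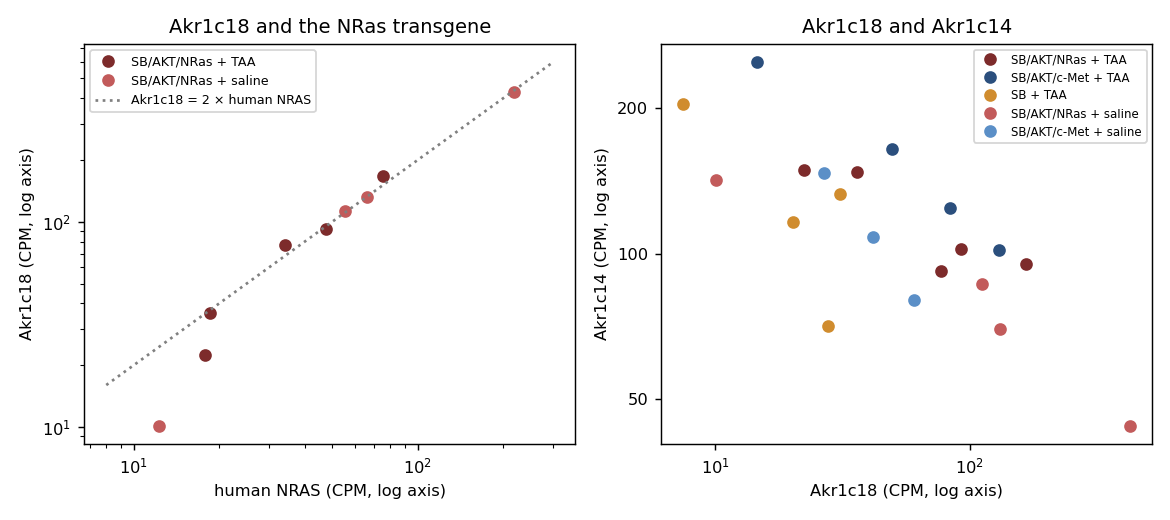
Left, Akr1c18 against human NRAS in the 9 livers given the NRas plasmid, both in CPM on log axes, with a dotted line where Akr1c18 is 2 times human NRAS. Right, Akr1c14 against Akr1c18 in the 20 livers other than SB + saline, both in CPM on log axes; livers with more Akr1c18 mostly have less Akr1c14, with examples from 249 CPM at 14.6 CPM of Akr1c18 to 44.0 CPM at 428 CPM.

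Bile duct markers mostly ran in the order of Akr1c18 within a group. The summed CPM of 8 bile duct markers, 7 of which passed the filter, was 253 to 4797 in SB/AKT/NRas + TAA, 109 to 680 in SB/AKT/c-Met + TAA, 165 to 276 in SB + TAA, 186 to 8857 in SB/AKT/NRas + saline and 83.8 to 406 in SB/AKT/c-Met + saline, against 74.0 to 131 in SB + saline. Its order within a group matched that of Akr1c18 in 28 of 31 pairs of livers outside SB + saline. The summed CPM of 8 hepatocyte markers, all of which passed the filter, was 51226 to 78339 in SB/AKT/NRas + TAA, 57129 to 84512 in SB/AKT/c-Met + TAA, 80516 to 113318 in SB + TAA, 51501 to 90240 in SB/AKT/NRas + saline and 65778 to 77626 in SB/AKT/c-Met + saline, against 100044 to 117966 in SB + saline. It ran opposite to Akr1c18 in 20 of the 31 pairs. The part of these cells in the level of Akr1c18 was not tested. How many other genes reach such counts of pairs was not taken.

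The other 6 Akr1c genes were abundant in control livers and at or below that level in most others. Akr1c6 (ENSMUSG00000021210), which interconverts active and inactive sex steroids, averaged 780 ± 156 CPM in SB/AKT/NRas + TAA, 842 ± 119 in SB/AKT/c-Met + TAA, 898 ± 299 in SB + TAA, 782 ± 371 in SB/AKT/NRas + saline livers and 971 ± 70.6 in SB/AKT/c-Met + saline, against 1423 ± 187 in SB + saline. Single SB/AKT/NRas + saline livers had 1187, 925, 310 and 707 CPM, against 1634, 1369, 1195 and 1496 CPM in SB + saline livers, so that replicate 1 nearly reached the controls and replicate 3 had the lowest level of all. The log2 fold change of Akr1c6 was −0.66 ± 0.27 in SB + TAA, −0.86 ± 0.27 in SB/AKT/NRas + saline livers and −0.55 ± 0.29 in SB/AKT/c-Met + saline. Livers did not overlap with SB + saline in either oncogene group and did in SB + TAA.

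Akr1c14 (ENSMUSG00000033715), which reduces dihydrotestosterone and other steroid ketones, was the only other member to meet the call threshold against SB + saline with edgeR as fitted here. It was at 142, 86.6, 44.0 and 70.0 CPM in SB/AKT/NRas + saline livers, against 241, 157, 178 and 220 CPM in SB + saline livers, and the groups did not overlap. The log2 fold change was −1.22 ± 0.31. The call was lost with library size as the only scaling (−0.85) and without any 1 of SB/AKT/NRas + saline replicates 3 and 4 or SB + saline replicate 1. In SB/AKT/c-Met + saline livers it was at 147, 80.3 and 108 CPM (−0.84 ± 0.34), also below every SB + saline liver. In SB + TAA livers it was at 116, 204, 133 and 70.9 CPM (−0.61 ± 0.31), which overlapped with the controls. With TAA and oncogenes together Akr1c14 was at 92.1 to 149 CPM in SB/AKT/NRas + TAA livers and at 101 to 249 CPM in SB/AKT/c-Met + TAA. In SB/AKT/NRas + saline against SB + saline, limma-voom also called Akr1c6 (−1.02). Without SB/AKT/NRas + saline replicate 1, edgeR also called Akr1c6, Akr1c12 and Akr1c19, and without SB + saline replicate 2 it also called Akr1c19.

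Among the members, Akr1c14 ran opposite to Akr1c18 in the most pairs of livers. Of the 31 pairs of livers of one group outside SB + saline, the liver with more Akr1c18 had less Akr1c14 in 27. The order was exactly reversed in SB/AKT/c-Met + TAA, SB/AKT/NRas + saline livers and in SB/AKT/c-Met + saline, and mostly so in SB/AKT/NRas + TAA (8 of 10 pairs) and SB + TAA (4 of 6). The same count of opposite pairs was 25 for Akr1c6, 23 for Akr1c12, 23 for Akr1c19, 21 for Akr1c13 and 18 for Akr1c20, each of 31. Akr1b8, by contrast, ran with Akr1c18 in 20 of 31. Pairs that share a liver are not independent, and all genes of a liver share its library and cell makeup. The share of all genes that ran opposite to Akr1c18 in as many pairs was not taken.

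**Figure D3:**
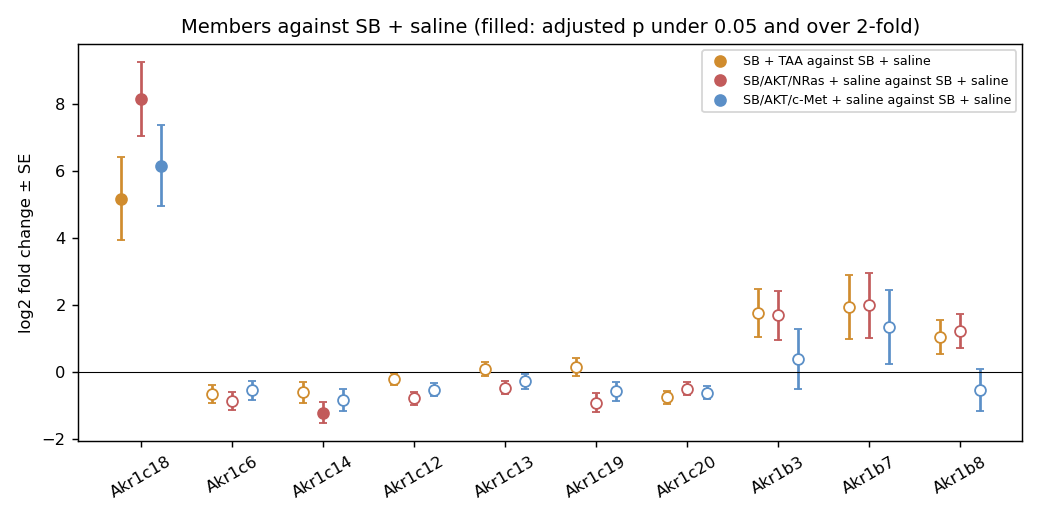
The log2 fold change of each gene against SB + saline, with its SE as the bar, for SB + TAA, SB/AKT/NRas + saline livers and for SB/AKT/c-Met + saline; filled points met the call threshold of edgeR. Akr1c18 stands at 5.18, 8.14 and 6.16, and the other Akr1c genes lie between −1.22 and 0.16.

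Akr1c12 and Akr1c13 are near copies. Their transcripts were 94.4% identical, and 28.6% of all 50-base windows of either occur without a mismatch in the other, falling to 11.97% over the last 500 bases of Akr1c12, where tag libraries of this kind read. Reads below a mapping quality of 10 were dropped by the authors, so each count rests on the part that differs, and how reads divided between the 2 genes is uncertain. Akr1c12 was at 86.6, 57.4, 51.7 and 49.5 CPM in SB/AKT/NRas + saline livers, against 111, 87.0, 111 and 112 CPM in SB + saline livers, which did not overlap (−0.79 ± 0.18). SB/AKT/c-Met + saline livers, at 63.0, 79.6 and 76.5 CPM, were also all below SB + saline (−0.53 ± 0.20), and SB + TAA livers were at 81.0, 106, 99.1 and 77.9 CPM (−0.22 ± 0.18), with a change of sign to 0.16 when library size alone was used. Akr1c13 overlapped with SB + saline in every group, with log2 fold changes of 0.09 ± 0.20 in SB + TAA, −0.47 ± 0.20 in SB/AKT/NRas + saline livers and −0.28 ± 0.22 in SB/AKT/c-Met + saline. The count of Akr1c13 over that of Akr1c12 was 1.67 to 1.99 in SB/AKT/NRas + TAA, 1.61 to 1.96 in SB/AKT/c-Met + TAA, 1.64 to 2.06 in SB + TAA, 1.57 to 2.18 in SB/AKT/NRas + saline and 1.49 to 1.89 in SB/AKT/c-Met + saline, against 1.38 to 1.54 in SB + saline. Only SB/AKT/c-Met + saline overlapped with the controls in this ratio, which needs no scaling.

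**Figure D4:**
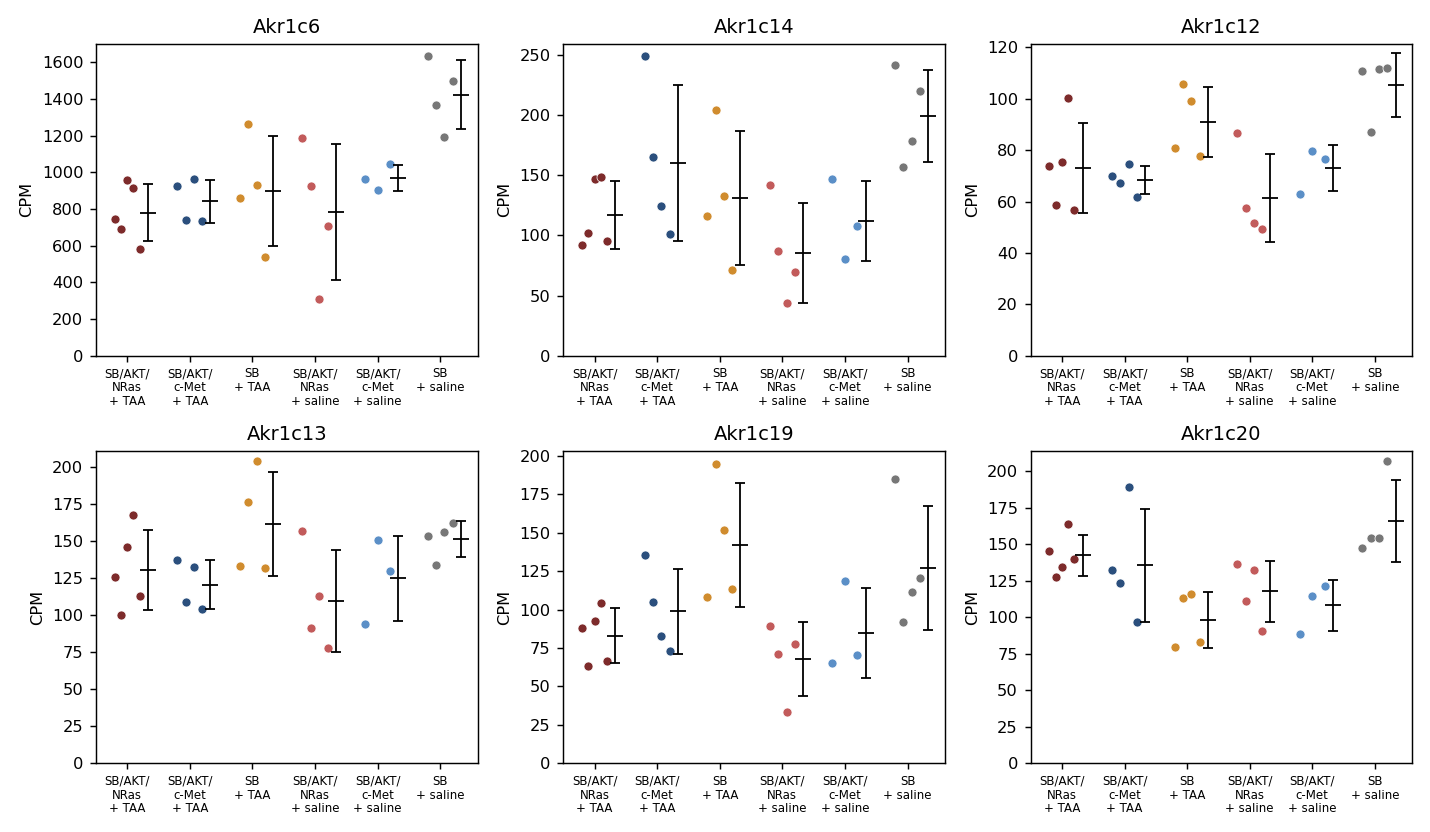
CPM of Akr1c6, Akr1c14, Akr1c12, Akr1c13, Akr1c19 and Akr1c20 in each liver by group, on linear axes from 0; points are livers, and the dash and bar give mean and SD. For Akr1c6 the SB + saline livers, at 1195 to 1634 CPM, lie above all oncogene livers given saline, and for Akr1c20 the SB + TAA livers, at 79.7 to 116 CPM, lie below all SB + saline livers.

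Akr1c19 and Akr1c20 differed in how they stood after TAA. Akr1c20 was at 79.7, 113, 116 and 82.8 CPM in SB + TAA livers, against 148, 154, 154 and 207 CPM in SB + saline livers, with no overlap and a log2 fold change of −0.76 ± 0.19. It was at 136, 111, 132 and 90.5 CPM in SB/AKT/NRas + saline livers (−0.50 ± 0.19) and at 88.4, 114 and 121 CPM in SB/AKT/c-Met + saline livers (−0.62 ± 0.21), all below the controls. With TAA on top of oncogenes it was at 127 to 164 CPM in SB/AKT/NRas + TAA, above every SB + TAA liver (0.54 ± 0.18), and at 96.9 to 189 CPM in SB/AKT/c-Met + TAA (0.47 ± 0.19). The estimated TAA effect on Akr1c20 differed from that in SB livers by 1.04 ± 0.26 for NRas and 1.09 ± 0.28 for c-Met. Neither difference met the call threshold with edgeR as fitted here or with limma-voom, and both did with DESeq2. Both use the same SB livers, among which SB + saline replicate 4, at 207 CPM, stood apart from the other controls. Akr1c19 was at 108, 195, 152 and 113 CPM in SB + TAA livers, against 185, 92.1, 111 and 120 CPM in SB + saline livers, a difference of 0.16 ± 0.27 with overlap. In SB/AKT/NRas + saline livers, at 89.3, 71.0, 33.0 and 77.8 CPM, it was below every control liver (−0.92 ± 0.27), and SB/AKT/NRas + TAA livers, at 63.1 to 105 CPM, were below every SB + TAA liver (−0.77 ± 0.25).

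The Akr1b genes were low in every group, and none met the call threshold in any comparison of 2 groups as fitted here. With library size alone Akr1b3 met it in SB + TAA, and Akr1b3 and Akr1b8 in SB/AKT/NRas + saline, against SB + saline. Akr1b8 also met it in SB/AKT/NRas + saline against SB + saline with no filter or without SB/AKT/NRas + saline replicate 1, in SB + TAA without SB + TAA replicate 2, and, with no filter or without SB/AKT/NRas + saline replicate 1, between the NRas and c-Met livers given saline. Akr1b8 (ENSMUSG00000029762), a reductase of retinaldehyde and lipid aldehydes that fibroblast growth factor is known to induce in cultured mouse fibroblasts, was at 13.4, 1.18, 7.03 and 8.38 CPM in SB + TAA livers, at 2.20, 9.74, 11.1 and 10.7 CPM in SB/AKT/NRas + saline livers and at 0.463, 4.10 and 2.62 CPM in SB/AKT/c-Met + saline livers, against 4.28, 2.84, 4.81 and 2.57 CPM in SB + saline livers. In SB/AKT/NRas + saline 3 of the 4 livers were above all controls and replicate 1 was below them, as it was lowest in Akr1c18 and human NRAS (1.22 ± 0.50). SB/AKT/c-Met + TAA livers, at 7.30, 7.04, 10.1 and 4.91 CPM, were all above the SB/AKT/c-Met + saline livers (1.53 ± 0.57).

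Akr1b7 (ENSMUSG00000052131), which detoxifies lipid aldehydes in the mouse adrenal and makes prostaglandin F there, was at 5.67, 3.16, 2.51, 2.41 and 2.76 CPM in SB/AKT/NRas + TAA livers, its highest group. That was above SB + TAA livers at 0, 2.37, 0.917 and 0.811 CPM (1.70 ± 0.59) and above SB/AKT/NRas + saline livers at 0.879, 0.348, 1.14 and 1.63 CPM (1.66 ± 0.59), with overlap in neither. SB + saline livers held 2 counts in all. The ratio of summed counts to theirs was 4.29 in SB + TAA (12 counts, 95% interval 0.956 to 39.5) and 4.56 in SB/AKT/NRas + saline (12 counts, 1.02 to 42.0), which counting error alone leaves wide. Of 7 adrenal cortex markers, Cyp11b2, Mc2r and Nr5a1 had no count in any group, and the summed CPM of the list was 20.3 to 75.9 in SB/AKT/NRas + TAA, 17.2 to 22.5 in SB/AKT/c-Met + TAA, 5.92 to 17.0 in SB + TAA, 4.84 to 117 in SB/AKT/NRas + saline livers and 4.63 to 15.7 in SB/AKT/c-Met + saline, against 0.428 to 5.21 in SB + saline. Only 2 of these 7 adrenal cortex markers passed the filter. In SB/AKT/NRas + TAA 5 of the 7 had no count, and in SB/AKT/NRas + saline 4 had none. The adrenal sums thus rest on few genes, and whether they reflect adrenal cells was not tested. Of 6 intestinal epithelium markers 3 passed the filter, and Cdx1 had no count in any group. The summed CPM of this list was 263 to 451 in SB/AKT/c-Met + saline, against 154 to 211 in SB + saline. Every liver given the NRas plasmid was also above the SB + saline livers. SB/AKT/c-Met + TAA, at 122 to 291 CPM, and SB + TAA, at 118 to 165 CPM, overlapped with SB + saline. Whether these sums reflect intestinal cells was not tested. Akr1b3 (ENSMUSG00000001642), the aldose reductase that turns glucose into sorbitol, had 30 counts in SB + TAA livers (ratio 3.58, 1.46 to 10.5), 28 in SB/AKT/NRas + saline (3.55, 1.44 to 10.5) and 7 in SB/AKT/c-Met + saline (1.34, 0.387 to 4.84), against 6 in SB + saline livers.

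**Figure D5:**
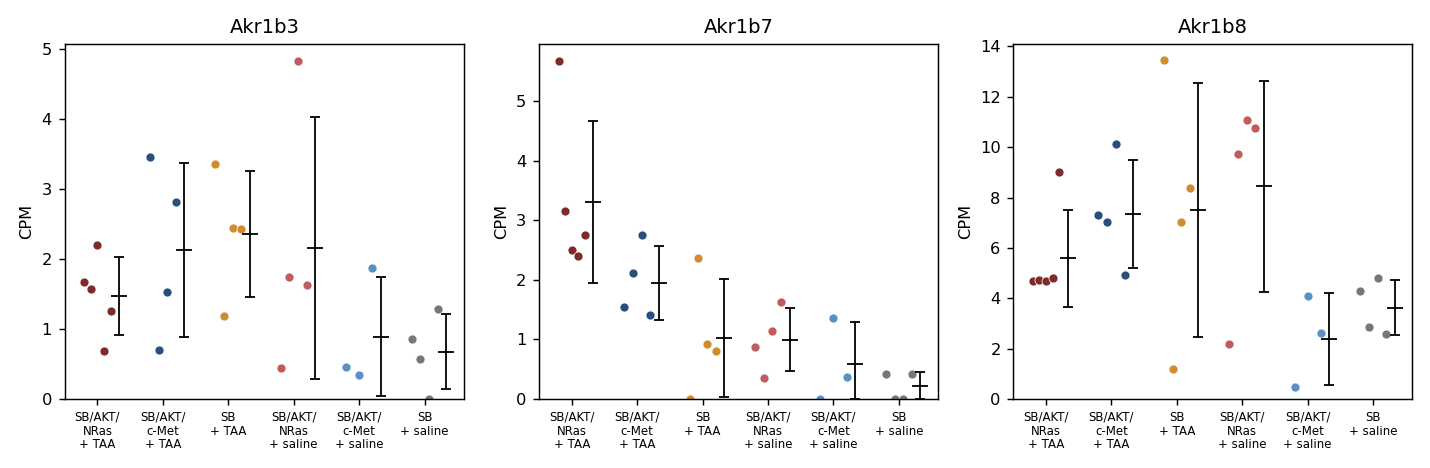
CPM of Akr1b3, Akr1b7 and Akr1b8 in each liver by group, on linear axes from 0; points are livers, and the dash and bar give mean and SD, cut at 0. Akr1b7 is highest in SB/AKT/NRas + TAA, at 2.41 to 5.67 CPM, and SB + saline livers are at 0 to 0.428 CPM.

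Counted over the 10 members, the calls were few. In SB + TAA against SB + saline 1 member was called, where 4.17% of all genes tested were called, and 2 members had livers that did not overlap, where 11.7% of all genes did so. In SB/AKT/NRas + saline against SB + saline 2 were called (6.03% of all genes) and 6 did not overlap (9.34%). In SB/AKT/c-Met + saline against SB + saline 1 was called (0.619%) and 5 did not overlap (10.1%). None was called by edgeR in SB/AKT/NRas + TAA livers against SB + TAA (1.24%) or against SB/AKT/NRas + saline (0.16%), nor in SB/AKT/c-Met + TAA livers against SB + TAA (0.397%) or against SB/AKT/c-Met + saline (0.196%). Members with livers that did not overlap were 3 (4.6% of all genes), 1 (2.78%), 1 (4.48%) and 2 (9.07%) in these 4 comparisons in that order. At an unadjusted p under 0.05 the same 4 comparisons held 4, 1, 4 and 1 members, and limma-voom and DESeq2 called 0 in each. Between SB/AKT/NRas livers and those of SB/AKT/c-Met no member was called by edgeR, limma-voom or DESeq2 with TAA (0.0103% of all genes, 0 members at an unadjusted p under 0.05) or with saline (0.134%, 2 members), and all members overlapped, where 2% of all genes did not overlap with TAA and 5.35% with saline. The difference of the TAA effect was called for 1 member with NRas (0.748%) and for 0 with c-Met (0.0103%, 3 at an unadjusted p under 0.05, and 1, Akr1c20, by DESeq2). An F test over all 6 groups passed for 4 members, Akr1c18, Akr1c12, Akr1c19 and Akr1b7, where 9.01% of all genes passed. Since the members were chosen with these comparisons known, nothing is read from the counts. That includes the counts at an unadjusted p under 0.05, for which the share of all genes was not taken. Median log2 fold changes over the members were 0.12 in SB + TAA, −0.48 in SB/AKT/NRas + saline livers and −0.53 in SB/AKT/c-Met + saline, against 0.09, 0.07 and 0.02 over all genes tested.

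Of 10 further aldo-keto reductases outside the members, 8 passed the filter and 1 was called. Akr1d1, which reduces the steroid ring on the way to bile acids, was at 77.8, 25.4, 23.6 and 33.8 CPM in SB/AKT/NRas + saline livers, against 128, 101, 94.2 and 108 CPM in SB + saline livers, and fell by 1.44 ± 0.28 on the log2 scale (edgeR quasi-likelihood, Benjamini-Hochberg adjusted p = 0.00203, lower in 4 of 4 livers). SB/AKT/c-Met + saline livers were at 59.3, 34.9 and 43.5 CPM (−1.24 ± 0.31, edgeR adjusted p = 0.0583), and SB + TAA livers at 42.0, 84.9, 79.8 and 49.5 CPM (−0.75 ± 0.27, edgeR adjusted p = 0.104). Livers did not overlap with SB + saline in any of the 3. In SB/AKT/c-Met + saline, limma-voom and DESeq2 each called 1 of the 8 genes, where edgeR called 0 with 2 at an unadjusted p under 0.05. Akr7a5, which reduces aldehydes formed from aflatoxin, was at 113 ± 19.5 CPM in SB/AKT/NRas + saline (n = 4), against 158 ± 3.62 CPM in SB + saline (n = 4), a difference of −0.48 ± 0.15 that had an edgeR adjusted p of 0.0421 but was under 2-fold. Akr1a1, the general aldehyde reductase, differed little in SB + TAA (0.06 ± 0.17, edgeR adjusted p = 0.903), SB/AKT/NRas + saline (−0.15 ± 0.18, 0.665) and SB/AKT/c-Met + saline (0.09 ± 0.19, 0.938). Akr1b10, Akr1c21, Akr1e1, Kcnab1 and Kcnab2 were called in none of the 9 comparisons, and Akr1cl and Kcnab3 were below the filter.

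Enzymes that share substrates with these reductases were counted by lists. These lists were chosen with earlier results of these livers known. Nothing is therefore read from their numbers of called genes, here or in the next paragraph. Against SB + saline, 4.17% of all genes were called for SB + TAA. The shares were 6.03% for NRas with saline and 0.619% for c-Met with saline. Of 17 tested genes of steroid reduction and oxidation, 3 fell and none rose in SB + TAA. They were Hsd3b5, a male-biased ketosteroid reductase (5.76 against 138 CPM, −4.64 ± 1.13, edgeR adjusted p = 0.0143), Rdh16, a retinol and steroid dehydrogenase (12.2 against 38.8 CPM, −1.67 ± 0.25, adjusted p = 0.000250), and Srd5a1, which makes dihydrotestosterone (−1.19 ± 0.34, adjusted p = 0.0346). In the livers of SB/AKT/NRas + saline 2 fell, Hsd11b1, which regenerates active glucocorticoid (194 against 470 CPM, −1.28 ± 0.39, edgeR adjusted p = 0.0366), and Hsd3b3, and in SB/AKT/c-Met + saline none was called. Rdh16 was higher in SB/AKT/NRas + TAA than in SB + TAA (42.8 against 12.2 CPM, 1.80 ± 0.24, edgeR adjusted p = 5.65e-05). Of 15 genes of prostaglandin synthesis and breakdown 1 rose in SB + TAA, 2 in SB/AKT/NRas + saline livers and 2 in SB/AKT/c-Met + saline, and none fell. Cbr3, a carbonyl reductase, averaged 23.1 CPM in SB/AKT/NRas + saline livers (3.22 ± 0.59, edgeR adjusted p = 0.00136) and 22.6 CPM in SB/AKT/c-Met + saline (3.19 ± 0.62, adjusted p = 0.00919), against 2.52 CPM in SB + saline. Ptgr1, which inactivates prostaglandins and leukotrienes, rose in SB + TAA (1.87 ± 0.40, edgeR adjusted p = 0.00543) and SB/AKT/NRas + saline livers (2.25 ± 0.39, adjusted p = 0.000922). Cbr1, a second carbonyl reductase, rose in SB/AKT/c-Met + saline (109 against 46.2 CPM, 1.23 ± 0.29, edgeR adjusted p = 0.0392). In this list the medians were 0.33, 0.85 and 0.00 for SB + TAA, SB/AKT/NRas + saline livers and for SB/AKT/c-Met + saline, and in the steroid list they were −0.91, −0.43 and −0.09, against the medians of all genes given above.

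Of 21 tested aldehyde, retinaldehyde and alcohol dehydrogenases, 2 rose and 1 fell in SB + TAA, 1 rose in SB/AKT/NRas + saline and 2 rose in SB/AKT/c-Met + saline. Aldh3a2, a dehydrogenase of fatty aldehydes, fell in SB + TAA (69.5 against 146 CPM, −1.08 ± 0.27, edgeR adjusted p = 0.0181) and rose in SB/AKT/c-Met + saline (382 against 146 CPM, 1.38 ± 0.29, adjusted p = 0.0144). It was at 358 CPM in SB/AKT/NRas + TAA, against 69.5 CPM in SB + TAA (2.37 ± 0.27, edgeR adjusted p = 7.91e-06). Aldh1b1, a mitochondrial aldehyde dehydrogenase, rose in SB + TAA (174 against 55.0 CPM, 1.67 ± 0.25, edgeR adjusted p = 0.000158) and was higher in SB/AKT/c-Met + TAA than in SB/AKT/c-Met + saline (178 against 36.7 CPM), and Dhrs9 rose in SB/AKT/NRas + saline livers and in SB/AKT/c-Met + saline (2.32 ± 0.50 and 2.54 ± 0.52, edgeR adjusted p = 0.00467 and 0.0132). None of 6 genes of the polyol pathway was called in any of the 9 comparisons by edgeR, with 1, 2 and 2 of them at an unadjusted p under 0.05 in SB + TAA, SB/AKT/NRas + saline livers and in SB/AKT/c-Met + saline. Of 22 known targets of NRF2, a factor that responds to electrophiles and is known to drive several aldo-keto reductases, 7 rose in SB + TAA, 9 in SB/AKT/NRas + saline livers and 4 in SB/AKT/c-Met + saline, and none fell. This list, too, was chosen with earlier results of these livers known, and nothing is read from these counts. Gsta1, a glutathione transferase, averaged 299 CPM in SB + TAA (4.37 ± 0.50, edgeR adjusted p = 4.72e-06), 105 CPM in SB/AKT/NRas + saline livers (2.86 ± 0.48, adjusted p = 0.000753) and 126 CPM in SB/AKT/c-Met + saline (3.12 ± 0.50, adjusted p = 0.00136), against 14.5 CPM in SB + saline. Slc7a11, the cystine transporter, rose by 4.55 ± 0.92 with TAA on SB alone (edgeR adjusted p = 0.00357) and by 4.73 ± 0.90 in SB/AKT/NRas + saline livers (edgeR adjusted p = 0.00177). Gpx2, a glutathione peroxidase of epithelia, averaged 2.90 CPM in SB/AKT/NRas + saline and was at 0 in every SB + saline liver. The list's medians were 0.71, 0.75 and 0.41 in the 3 comparisons in that order.

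Genes whose log2 CPM over the 24 livers was most like that of a member were named for the members with at least 5 CPM on average, as descriptions of shared levels. For Akr1c18 these were Ifi27l2b (Pearson r = 0.954, and 0.888 after group means were removed) and Ly6d (0.941 and 0.8292). For Akr1c6 they were Acsm1 (0.960 and 0.945) and Cyp2d9 (0.953 and 0.934), and for Akr1c14 Sord (0.942 and 0.932) and Slc27a5 (0.931 and 0.918). For Akr1c12 they were Ndufa6 (0.919) and Fbxo3 (0.913), for Akr1c13 Atp5f1 (0.896) and Cnbp (0.895), and for Akr1c19 Cyp3a11 (0.882) and Ces1g (0.841). For Akr1c20 they were Pet100 (0.788) and Cyb5a (0.753), and for Akr1b8 Rpl39-ps (0.800) and Cct7 (0.786). All genes of a liver share its library, depth and cell makeup.

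Libraries held 2152510 to 3399247 counts in genes. TMM factors were 0.846 to 1.19 in the 5 other groups and 0.772 to 0.817 in SB + saline, and with library size as the only scaling the median of all genes shifts by 0.38 in SB + TAA, 0.43 in SB/AKT/NRas + saline livers and 0.26 in SB/AKT/c-Met + saline against SB + saline. That scaling turned the sign for Akr1c12 in SB + TAA against SB + saline, for Akr1c12 and Akr1c13 between TAA and saline in SB/AKT/c-Met livers, and for Akr1c6 in SB/AKT/NRas + TAA livers against SB/AKT/NRas + saline. SB + TAA replicate 4 held 4541 CPM of 6 skeletal muscle markers, against 3.42 to 22.7 CPM in the other 23 livers. Without that liver and SB/AKT/NRas + saline replicate 3, the calls of members against SB + saline were 1, 2 and 1 in SB + TAA, SB/AKT/NRas + saline livers and in SB/AKT/c-Met + saline as before, and the NRas difference of the TAA effect was no longer called. The summed markers of macrophages, stellate cells and fibroblasts, and sinusoidal endothelium were 135 to 499, 51.7 to 686 and 50.0 to 134 CPM over all livers. The stellate cell and fibroblast sum was 56.3 to 686 CPM in SB/AKT/NRas + saline and 51.7 to 82.6 CPM in SB + saline.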

How the data were processed

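RNA from 24 livers was made into 3′-end libraries with molecular identifiers. The authors aligned reads with STAR to GRCm38 with human NRAS and MET added, removed duplicate molecules and assigned them to genes on the sense strand (featureCounts 1.6.4, mapping quality 10 or more). The deposited counts, 1 library per liver, were used as deposited. A second deposited table gave gene lengths and coordinates, and its summary the assigned reads (13.8% to 23.9% of alignments, with 44.0% to 54.8% under the mapping quality). In SB + saline 15.6% to 16.7% were assigned, and 15478 to 16478 genes had a count. The same ranges were 20.7% to 23.1% and 16838 to 19026 in SB + TAA, with no overlap. They were 13.8% to 23.9% and 16403 to 18411 in SB/AKT/NRas + saline, and 15.9% to 20.6% and 16279 to 17502 in SB/AKT/c-Met + saline. The part of this in the folds was not tested. Libraries held 2152510 to 3399247 counts, and intervals on counts cover counting error only. Levels of different genes were set side by side only as count ratios within a library (Akr1c18 to human NRAS, Akr1c13 to Akr1c12), whose size depends on how well each transcript is captured.

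The 19381 genes that reached 0.5 CPM in 2 or more libraries were fitted with edgeR 4.0.16 (R 4.3.3), with TMM scaling, 6 group means and the quasi-likelihood test over all 24 livers. A gene was called at a Benjamini-Hochberg adjusted p under 0.05 and more than 2-fold. SE is the absolute log2 fold change over the square root of F. The study's own analysis used limma, and limma-voom (limma 3.58.1) and DESeq2 1.42.0 were alternatives, with other scalings, filters, a replicate block and each liver left out. The livers came from separate mice. The members and lists were chosen with earlier results of these data known. Of each enzyme list, up to 3 called genes of largest fold were named, beside the aldo-keto reductases and, for members of at least 5 CPM, the 2 most correlated genes of log2 CPM (prior count 2); Srd5a1 and Hsd3b3 were named after their values were seen. On data simulated for SB/AKT/NRas + saline against SB + saline (18619 genes, 200 changed), the test recovered 18% of genes changed by 1 on the log2 scale, 58% by 2, 78% by 3 and 84% by 5, with 7 false calls. Promoters came from RefSeq on GRCm38.p6.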

Additional observations from a re-analysis of the deposited data

Results flagged for a closer look

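Of 90 groups of livers tested gene by gene, 13 had a highest or lowest liver that stood apart from the rest by Dixon's criterion. Its rate of about 1 in 20 by chance holds for normally distributed values and not for counts near 0. The 13 flags are therefore not set against that rate. Akr1c12 was at 87.0 CPM in SB + saline replicate 2, against 111 to 112 CPM in the other SB + saline livers. Akr1c20 was at 207 CPM in SB + saline replicate 4, against 148 to 154 CPM in the others. Akr1b7 was at 5.67 CPM in SB/AKT/NRas + TAA replicate 1, against 2.41 to 3.16 CPM in the others. Akr1b8 was at 2.20 CPM in SB/AKT/NRas + saline replicate 1, against 9.74 to 11.1 CPM in the others, and at 9.02 CPM in SB/AKT/NRas + TAA replicate 5, against 4.67 to 4.81 CPM. Akr1b10 was at 8.93 CPM in SB + TAA replicate 4, against 3.36 to 3.55 CPM, and at 9.02 CPM in SB/AKT/NRas + TAA replicate 5, against 2.21 to 3.76 CPM. Akr1c21 was at 1.32 CPM in SB/AKT/NRas + saline replicate 1, 0.768 CPM in SB/AKT/c-Met + TAA replicate 1, 0.334 CPM in SB/AKT/NRas + TAA replicate 1 and 1.28 CPM in SB + saline replicate 1, with 0 in the other livers of each group. Kcnab2 was at 0.384 CPM in SB/AKT/c-Met + TAA replicate 1 and 0.568 CPM in SB + saline replicate 2, with 0 in the others. Where all other livers of a group are at 0, any count in the remaining liver meets the criterion. The flags of Akr1c21 and Kcnab2 were thus fixed in advance.

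The effect of TAA on Akr1c18 differed between SB/AKT/NRas livers and SB livers by −6.29 on the log2 scale, in values that were known when the gene was chosen. It was not called with limma-voom, without any 1 of the 4 SB + saline livers, SB + TAA replicate 4 or SB/AKT/NRas + saline replicate 3, or without the last 2 together.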

How the results depend on the processing

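No fold of a member that met the threshold changed sign under any alternative. Leaving out SB + TAA replicate 4 (muscle markers) with SB/AKT/NRas + saline replicate 3 was chosen after seeing the data. Members called in SB + TAA against SB + saline were 2 with adjusted p alone, 2 with library size alone and 0 with limma-voom, and 0 with limma-voom in SB/AKT/c-Met + saline. In SB/AKT/NRas + saline, adjusted p alone gave 5 members and 2 other aldo-keto reductases. In SB/AKT/c-Met + saline, 1 other aldo-keto reductase was called with no filter, the replicate block, only the groups compared, limma-voom, DESeq2 and both livers left out. With no filter, 1 member was called for each oncogene pair with TAA over TAA alone (1 for c-Met and 1 for NRas), 1 in SB/AKT/NRas + TAA livers against SB/AKT/NRas + saline, 2 in SB/AKT/NRas + saline livers against SB/AKT/c-Met + saline, 2 members and 1 other in the c-Met difference of TAA effects, 3 and 1 in that of NRas, and 8 members in the F test. DESeq2 gave 1 member in the c-Met difference, 2 in the NRas difference, and 7 members and 2 others in the F test. The NRas difference held 2 with filterByExpr, 0 with limma-voom and 0 with both livers left out. Library size alone gave 2 others in the F test. The cause of these changes was not tested. The share of all genes called under each alternative, or with a liver left out, was not taken. Nothing about the members is therefore read from these counts or from those that follow.

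Leaving out 1 liver at a time gave 1 to 2 members in SB + TAA (2 without SB + TAA replicate 2), 0 to 1 in SB/AKT/c-Met + saline, with 0 to 1 others, and 1 to 6 in SB/AKT/NRas + saline (6 without SB/AKT/NRas + saline replicate 1). It gave 0 to 2 in SB/AKT/NRas + saline livers against SB/AKT/c-Met + saline (2 without SB/AKT/NRas + saline replicate 1), 0 to 3 in the NRas difference, with 0 to 1 others, 0 to 1 others in SB/AKT/NRas + TAA livers against SB/AKT/NRas + saline, and 2 to 8 in the F test. Same-numbered livers did not deviate together on average (mean r = −0.0072 over 55 pairs, against 0.0021 over 184 others). A mean over pairs and genes cannot show whether some livers of the same number were handled together, so pairing is not settled. The replicate block gave 2 members in the F test, against 4 without it, and left the counts of members called in the 9 comparisons within 1.5 times. Akr1b7 and Akr1b3 are limited by depth, with 2 and 6 counts in SB + saline.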
